A study of Mus musculus with 3 samples.

Results

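The small leucine-rich proteoglycans (SLRPs) are secreted proteins of the extracellular matrix built from repeats rich in leucine, many of which carry sugar chains. Those described here were decorin (Dcn), biglycan (Bgn), asporin (Aspn), fibromodulin (Fmod), lumican (Lum), PRELP (Prelp), osteoadherin (Omd) and osteoglycin (Ogn). They were found as the probe sets whose single gene symbol in the platform annotation is one of these 8, which gave 19 of 34945 probe sets with 1 symbol and 8 of 18193 genes. RNA came from dental papillae of ICR mice, the mesenchyme enclosed by the tooth germ that later forms the pulp and its odontoblasts, at embryonic days 16 and 18 (E16, E18) and postnatal day 3 (P3). The papillae were separated with enzymes from lower first molar germs, and each RNA sample pooled more than 20 of them. Each stage has 1 array, so no test, standard error or p-value is possible, and every value compares 3 pooled samples, not populations.

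SLRPs bind collagen fibrils and limit how they fuse and thicken, and several bind growth factors of the TGF-beta family. Decorin, biglycan and asporin belong to class I, fibromodulin, lumican, PRELP and osteoadherin to class II and osteoglycin to class III. In teeth they are known as components of predentin, dentin and the pulp, where collagen is assembled before mineral is laid down.

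Most of these genes sit beside one another in the mouse genome. In the RefSeq gene order of GRCm38.p6, Dcn, Lum, Kera and Epyc lie together on chromosome 10. Ecm2, Aspn, Omd and Ogn follow each other on chromosome 13, Optc, Prelp and Fmod do so on chromosome 1, and Bgn lies apart from the family on chromosome X. RefSeq promoters matched 6 of the 8 genes. The 250 bases before the start are printed for Omd and Ogn, neighbours that differed in when they were higher, and for Fmod, which had the largest difference of the 8. Omd lies at chr13:49582212-49582461, Ogn at chr13:49607765-49608014 and Fmod at chr1:134037004-134037253, all on the plus strand of GRCm38.p6. Capitals mark the longest run of letters that Omd and Ogn share, which starts 117 bases before the start of Omd and 47 before that of Ogn.
Omd: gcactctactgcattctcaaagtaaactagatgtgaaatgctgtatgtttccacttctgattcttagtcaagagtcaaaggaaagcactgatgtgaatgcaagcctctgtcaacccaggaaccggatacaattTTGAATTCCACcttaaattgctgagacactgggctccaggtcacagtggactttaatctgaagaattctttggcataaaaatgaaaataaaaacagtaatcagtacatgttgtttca
Ogn: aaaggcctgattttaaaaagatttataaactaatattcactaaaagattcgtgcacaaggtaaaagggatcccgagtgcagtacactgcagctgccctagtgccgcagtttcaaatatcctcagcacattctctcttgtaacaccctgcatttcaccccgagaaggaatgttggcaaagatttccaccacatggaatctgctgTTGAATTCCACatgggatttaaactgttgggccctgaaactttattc
Fmod: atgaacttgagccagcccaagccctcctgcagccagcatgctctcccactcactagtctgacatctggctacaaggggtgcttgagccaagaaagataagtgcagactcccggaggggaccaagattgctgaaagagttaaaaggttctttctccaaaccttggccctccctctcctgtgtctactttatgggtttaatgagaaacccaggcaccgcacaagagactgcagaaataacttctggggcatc
That run of 11 bases was picked out after the sequences were compared. On either strand it occurred in 4 of 32851 promoter windows of this length, the other 2 being those of Pla2g4a and Serpinb1b. Both strands of the 6 windows were also searched for the TATA box and for letters that factors of skeletal tissue can bind. TGTGGT, a Runx site, was in that of Ogn (14.0% of all windows). TATAAA, the TATA box, was in those of Aspn and Ogn (12.4% of all), with overlapping matches on both strands of Ogn. The matches lay 207 and 178 bases before the start of Aspn and 229 and 227 before that of Ogn. TAATTA, a homeodomain site (4.84% of all), and TGANTCA, an AP-1 site (6.75%), were in none of the 6. A match is a description of letters and does not show binding.

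The deposited values are ratios, each probe set divided by its own middle value over the 3 stages. The ratio of 2 stages is therefore kept unless a value was cut at a lower limit, while the level is lost. A level, called the recovered signal here, was worked out from the steps in which the values were written. It may be understated by the same factor on all 3 arrays. It was used to set a floor, to pick 1 probe set per gene and to sum marker lists, and levels of different genes are not ranked by it. The floor was 82.0, the median of all recovered signals. Lower signals were set to the floor before a difference was taken, and a fold with one side at the floor is written "at least". A probe set counts as measured when at least 1 of the 2 arrays reached the floor. A gene's value is that of its probe set with the highest mean recovered signal, called the brightest, and that choice can itself be affected by an understated signal.

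From E16 to P3, expression of 6 of the 8 genes had increased at least 2-fold, with folds of 24.6 for Fmod, 15.0 for Dcn, 7.45 for Ogn, 6.22 for Omd, 2.99 for Lum and 2.38 for Bgn. None had decreased as much. Aspn was 1.51-fold and Prelp at least 1.59-fold higher. Past 2-fold over all 12190 measured genes were 6.58% upward and 15.6% downward. The median log2 difference was 2.11 over the 8 and -0.17 over all genes. Prelp was measured only through its P3 signal, so it could not have come out lower. The balance over all genes depended on scaling: the higher ones made up 29.7% of those past 2-fold with the deposited scaling and this floor and 48.9% after quantile normalization (1228 higher, 1281 lower), and the same 6 SLRP genes were past 2-fold under both. Counted by probe sets, 17 of the 19 were measured from E16 to P3 and 15 were past 2-fold upward (6.20% of all 20506 probe sets with 1 symbol) and 0 downward (15.0%). From E18 to P3 the same count was 14 of 17 upward (3.86%) and 0 downward (11.0%), and from E16 to E18 3 of 15 upward (7.77%) and 0 downward (8.02%). In a comparison with P3, some probe sets of Fmod, Dcn, Aspn and Prelp reached the floor only at P3 and could not have come out lower. Probe sets of one gene read the same transcripts and are not independent. The papilla is a mixture of cells, so more cells of a type and more RNA per cell cannot be told apart in any of these values.

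**Figure D1:**
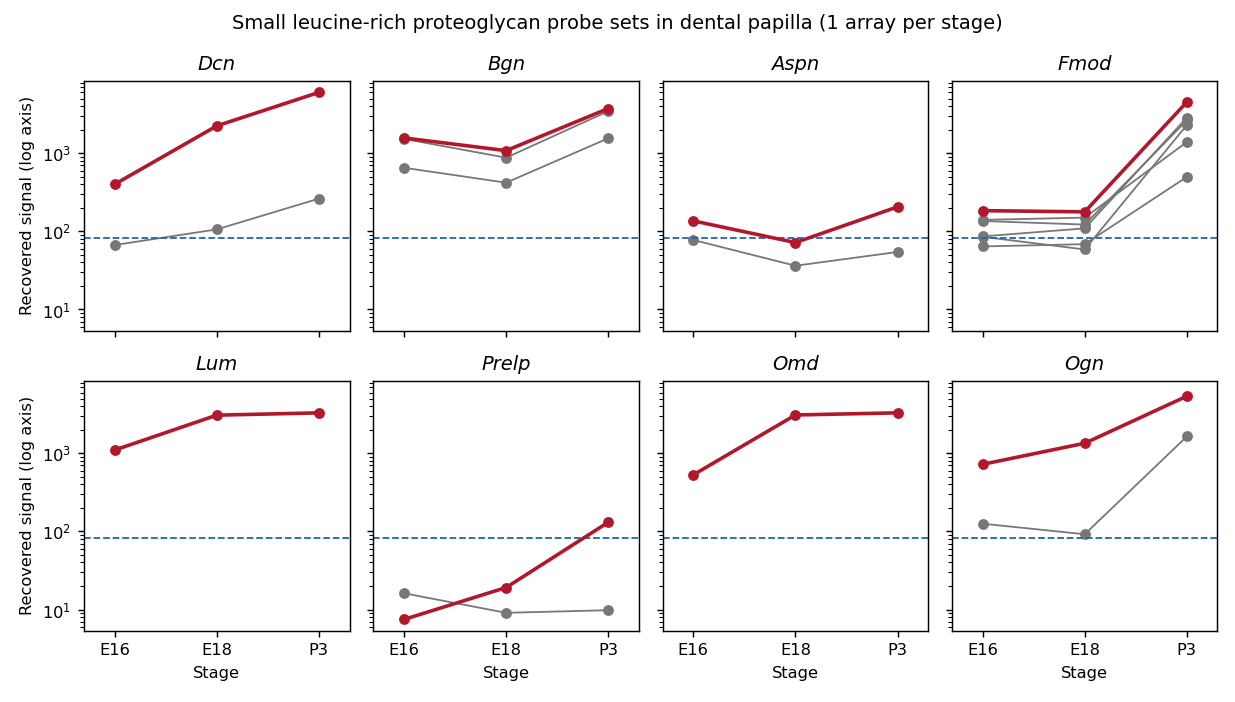
Recovered signal (log axis) of every probe set of the 8 genes at E16, E18 and P3, with 1 array per stage; the red line is the brightest probe set, grey lines are the others, and the dashed line is the floor of 82.0. All 6 Fmod probe sets pass 2-fold only between E18 and P3, while Lum and Omd do so between E16 and E18.

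The 2 steps differed between genes. At E18, 3 genes exceeded their E16 value at least 2-fold: Omd (5.84-fold), Dcn (5.59-fold) and Lum (2.80-fold). Of all 12031 genes measured in that step, 8.10% were past 2-fold upward and 8.12% downward. Between E18 and P3, 5 genes were higher: Fmod (25.4-fold), Ogn (4.01-fold), Bgn (3.46-fold), Dcn (2.68-fold) and Aspn (at least 2.51-fold). Of all 12115 genes in that step, 4.08% were past 2-fold upward and 11.8% downward. In neither step was a SLRP gene lower by 2-fold. Aspn and Prelp were measured from E18 to P3 only through their P3 signals, so they could not have come out lower there. From E16 to E18, Aspn was measured only through E16 and could not have come out higher. Dcn was the only one of the 8 past 2-fold at both steps. The higher genes among all those past 2-fold made up 25.8% from E18 to P3 with the deposited scaling and the floor and 47.7% after quantile normalization (795 higher, 872 lower), which left the 5 SLRP genes past 2-fold. Because both steps use the E18 array, an error of that array would move them in opposite directions.

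**Figure D2:**
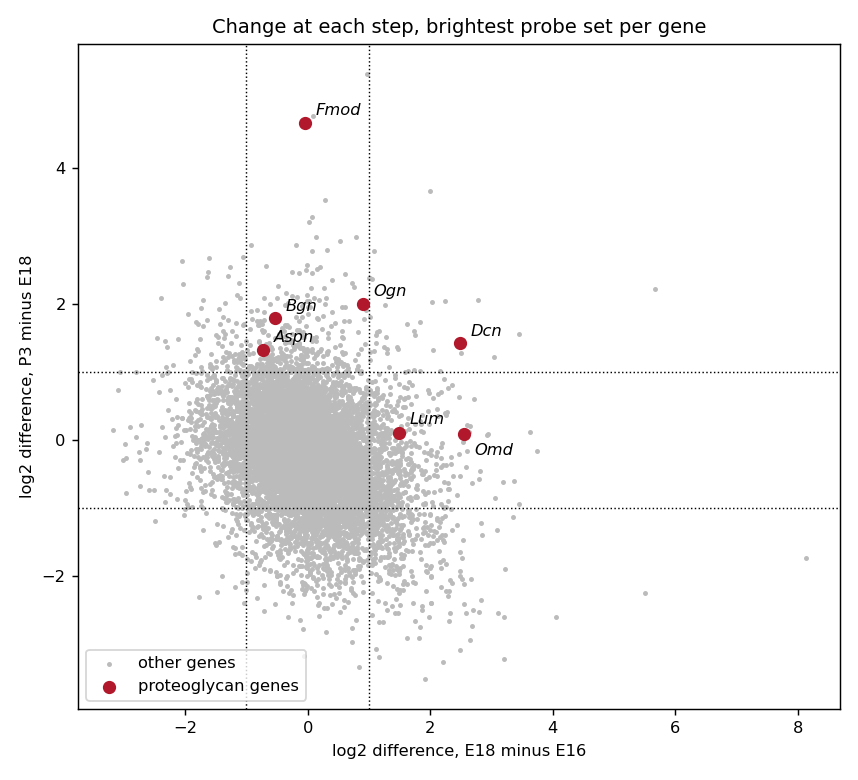
Log2 difference of each gene's brightest probe set from E16 to E18 (x axis) and from E18 to P3 (y axis), for all genes measured in both steps (grey) and for the 7 SLRP genes among them (red); dotted lines mark 2-fold. Fmod lies at -0.05 and 4.67, Omd at 2.55 and 0.09, and Dcn at 2.48 and 1.42.

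Among the class I genes, decorin regulates the diameter of collagen fibrils and binds TGF-beta. The brightest Dcn probe set had recovered signals of 401 at E16, 2243 at E18 and 6018 at P3. Each stage was above the one before, by more at the first step than at the second. The other Dcn probe set read 66.9, 106 and 263, which gives at least 1.29-fold at the first step and 2.47-fold at the second. The second step was thus alike by both (2.68-fold and 2.47-fold). At the first step the deposited values of the other probe set, without the floor, gave 1.59-fold against 5.59-fold. With the median of both probe sets in place of the brightest, Dcn was 2.69-fold higher at the first step and 6.93-fold from E16 to P3. The brightest Dcn value ranked 53 of 12031 genes from the highest at the first step, 214 of 12115 at the second and 13 of 12190 from E16 to P3.

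Biglycan is the closest relative of decorin and is known from bone and dentin matrix. Its brightest probe set had recovered signals of 1573 at E16, 1080 at E18 and 3738 at P3. E18 was the lowest stage and P3 the highest by all 3 Bgn probe sets. From E16 to E18 they were 1.46-fold, 1.55-fold and 1.74-fold lower, all under the 2-fold threshold. From E18 to P3 they were 3.46-fold, 3.70-fold and 3.94-fold higher, and from E16 to P3 2.26-fold to 2.38-fold higher. Bgn ranked 105 from the highest at the second step and 9431 at the first.

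Asporin carries a run of aspartic acid and is known from the periodontal ligament, where it restrains mineralisation. Its brighter probe set had recovered signals of 136 at E16, 71.8 at E18 and 206 at P3, so E18 lay under the floor. This is a drop of at least 1.66-fold to E18, a gain of at least 2.51-fold from E18 to P3, and 1.51-fold from E16 to P3. The other probe set was under the floor on all 3 arrays, with 77.7, 36.3 and 54.5. It too was lowest at E18, but its P3 value lay below its E16 value by a deposited 1.42-fold, opposite to the first. The brighter probe set is of a kind (_s_at) that may detect several transcripts. Without such probe sets Aspn had no measured value.

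Among the class II genes, fibromodulin binds fibrillar collagen and guides its cross-linking. The brightest of its 6 probe sets had recovered signals of 184 at E16, 178 at E18 and 4526 at P3. The embryonic stages were alike and P3 stood far above both. All 6 probe sets put P3 far above both. From E18 to P3 their folds ran from at least 6.07 to at least 28.0, and from E16 to P3 from at least 6.07 to 33.2. From E16 to E18 the 5 measured ones lay between 0.90 and 1.27 times with the floor applied. Among these, a probe set under the floor at E18 (58.7) was 1.45-fold lower there by its deposited ratio. The lowest folds came from a probe set that was under the floor at E16 (64.2) and E18 (68.6) and reached 498 at P3; its deposited fold from E18 to P3 was 7.26. Of the 6, 5 are of the _x_at kind, which may also detect related transcripts. The one that is not read 140, 150 and 1396, which is 9.31-fold from E18 to P3 and 9.94-fold from E16 to P3. Fmod ranked 3 of 12115 genes from the highest at the second step and 8 of 12190 from E16 to P3, and 6114 of 12031 at the first step.

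Lumican, also a collagen-binding proteoglycan, is needed for the ordered fibrils of the cornea. Its only probe set had recovered signals of 1101 at E16, 3078 at E18 and 3293 at P3. E16 stood apart, 2.80-fold below E18, while E18 and P3 differed 1.07-fold. Osteoadherin binds hydroxyapatite and is known from bone and odontoblasts. The only Omd probe set read 530, 3095 and 3296. It had the same shape as Lum with a larger first step, 5.84-fold, and again 1.07-fold at the second. Omd ranked 42 and Lum 364 of 12031 genes from the highest at the first step. With 1 probe set each, neither gene has a second reading on these arrays.

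PRELP anchors basement membranes to connective tissue. Its brighter probe set had recovered signals of 7.46 at E16, 19.1 at E18 and 131 at P3. Only P3 passed the floor, so it was at least 1.59-fold higher there than at either embryonic stage. The deposited ratios, without a floor, gave 17.5-fold from E16 and 6.84-fold from E18, but they rest on embryonic signals far under the floor. The other Prelp probe set stayed under the floor, with 16.1, 9.07 and 9.80, and its P3 value was below its E16 value. The P3 increase of Prelp thus rests on 1 probe set, again of the _s_at kind.

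Osteoglycin, the class III gene, is also called mimecan and was first isolated from bone. Its brightest probe set had recovered signals of 723 at E16, 1345 at E18 and 5387 at P3. The other read 125, 91.9 and 1641. Both put P3 highest, 4.01-fold and 17.9-fold above E18 and 7.45-fold and 13.1-fold above E16. At the first step they went opposite ways, 1.86-fold higher and 1.36-fold lower, both under 2-fold. Its neighbour Omd was 5.84-fold higher at the first step and 1.07-fold at the second, and Aspn, on the far side of Omd, was lowest at E18. The neighbours Dcn and Lum were both past 2-fold at the first step. Fmod and Prelp both had their highest value at P3 by their brightest probe sets.

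**Figure D3:**
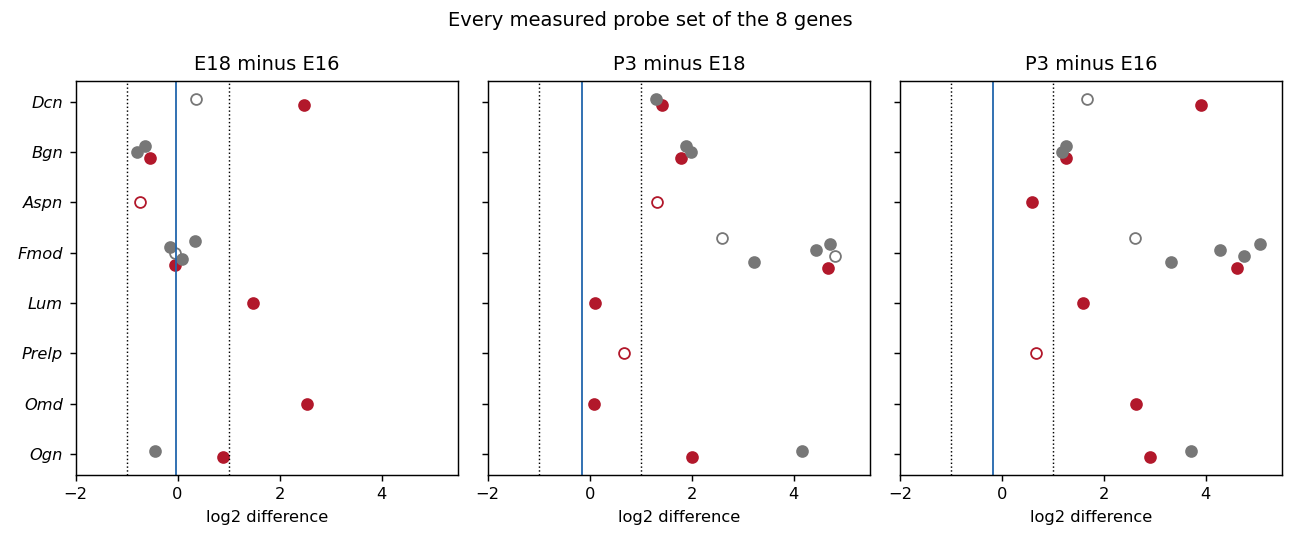
Log2 difference of every measured probe set of the 8 genes at E18 minus E16, P3 minus E18 and P3 minus E16. Red is the brightest probe set, grey the others, open circles are bounds with one side at the floor, dotted lines mark 2-fold and the blue line is the median of all genes (-0.04, -0.15 and -0.17). All 6 Fmod and all 3 Bgn probe sets lie past 2-fold in the second panel.

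Readings of one gene by different probe sets give some guide to the measurement error of a gene, and they carry any error that a whole array has. Over 5069 genes with further measured probe sets, another probe set differed from the brightest by a median of 0.55 on the log2 scale between E16 and P3, which is 1.46-fold, and 1 in 10 differed by more than 2.72-fold. Of 352 genes with other measured probe sets whose brightest one increased at least 2-fold from E16 to P3, 89 (25.3%) had all the others past 2-fold too. Dcn, Bgn, Fmod and Ogn, the SLRP genes with further measured probe sets, were among these 89. From E18 to P3 they were likewise among the 45 of 215 genes (20.9%). By the brightest probe sets, the Bgn fold of 2.38 lies under that 2.72-fold and that of Lum (2.99) little above it. Those of Fmod, Dcn, Ogn and Omd lie well above. The other Dcn probe set gave at least 3.20-fold, and Lum and Omd have 1 probe set each. All 3 Bgn probe sets nonetheless gave folds within 2.26 to 2.38.

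Likeness of pattern was measured as the distance between the 2 log2 step differences over the 3 arrays, among 9854 other genes at or above the floor on all of them. The nearest to Fmod were Dmkn (distance 1.19), Grb14 (1.40) and Fndc1 (1.46), none of which was close. Their folds from E18 to P3 were 11.5, 9.69 and 9.24, against 25.4 for Fmod. The nearest to Dcn were Slc26a7 (0.16), an anion transporter gene, Parm1 (0.45) and Sorbs2 (0.52). Slc26a7 read 210, 1193 and 2877, a fold of 5.68 and then 2.41. The nearest to the median of the 7 SLRP genes measured at both steps were Sparcl1 (0.04), which encodes a relative of the matrix protein SPARC, Arhgef10 (0.18) and Rgs3 (0.22). Aspn entered that median with values set to the floor at E18. Among the other 6 SLRP genes, whose steps are not bounds, Lum and Omd were nearest to each other (1.06). Fmod had the largest distance to its nearest SLRP gene, 2.83 from Ogn, and lay 5.26 from Omd.

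Epyc, Chadl and Ecm2, of the 10 other SLRP genes, were under the floor at E16, so from E16 to P3 they could not have come out lower. Of these 10 genes, 8 were on the array with 1 symbol and 5 were measured from E16 to P3. Among the 5, 1 was at least 2-fold higher and 0 lower (6.58% and 15.6% of all genes), with a median log2 difference of 0.70. The gene past 2-fold was Epyc, epiphycan, first known from growth cartilage. It read 56.3, 195 and 502, at least 2.37-fold higher at the first step and 2.58-fold at the second, and so past 2-fold at both, as was Dcn of the same cluster. Kera, the keratocan gene of the same cluster, stayed under the floor at 22.5, 14.2 and 23.4, as did Optc and Chad.

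Genes of the enzymes that build the sugar chains were counted in 3 groups, against 6.58% of all genes past 2-fold upward from E16 to P3 and 15.6% downward. Of 5 measured genes of the linker that joins chains to the protein, 1 was at least 2-fold higher from E16 to P3, B4galt7 (at least 2.13-fold), and 0 were lower. That value is from an _x_at probe set, and without such probe sets the count was 0. From E16 to E18, 2 of the 5 were past 2-fold upward (8.10% of all genes), B4galt7 (at least 2.69-fold) and B3gat3 (2.23-fold). The other measured B3gat3 probe set went the opposite way, to 0.72 times its E16 value. With the median over probe sets the count was 1. Of 14 measured genes of chondroitin and dermatan sulfate, 0 were higher and 2 lower (2 higher after quantile normalization). These 2 lower ones were the sulfotransferase genes Chst15, 4.31-fold lower, and Chst14, which acts on dermatan sulfate, 2.69-fold lower. Both were already past 2-fold lower at E18 (3.24-fold and 3.04-fold). The chain-extending gene Chsy1 was 1.39-fold lower. Of 10 measured genes of keratan sulfate and tyrosine sulfation, 0 were higher and 1 lower. This was Tpst1, which sulfates tyrosines such as those near the start of fibromodulin, with 1618, 932 and 585, a fall of 2.77-fold. Chst1, which sulfates keratan, read 211, 197 and 221. The medians of these 3 groups were 0.04, 0.22 and -0.18 on the log2 scale, against -0.17 for all genes.

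Of 11 collagen genes whose fibrils or networks SLRPs coat, 3 had increased at least 2-fold from E16 to P3 and 0 decreased (6.58% and 15.6% of all genes). In the first step 0 were past 2-fold upward and 3 downward (8.10% and 8.12% of all genes). In the second, 5 were past it upward and 0 downward (4.08% and 11.8%). The 3 higher from E16 to P3 were Col1a1, Col1a2 (6.31-fold, with 2.27-fold and 3.12-fold by its remaining probe sets) and Col12a1 (2.68-fold). The size for Col1a1 depended on the probe set, at least 81.1-fold by the brightest and 2.04-fold by the other. After quantile normalization 5 of the 11 were higher from E16 to P3.

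Of 16 growth factor and receptor genes tied to SLRPs, 5 were at least 2-fold higher from E16 to P3 and 2 lower (6.58% and 15.6% of all genes). Bmp2 was 13.3-fold, Ccn4, a matricellular gene of Wnt signalling, 10.5-fold and Tgfb2 4.79-fold higher (at least 1.17-fold to 7.77-fold by its other probe sets). Ibsp, a bone matrix gene counted in this list, was 3.53-fold lower, and at most 0.64 times its E16 value by its other probe set. The other lower gene was Bmp4, 2.75-fold lower by its only probe set. Tgfb1 was 1.86-fold higher. Of 10 measured genes of proteases that can cut SLRPs, 7 had decreased at least 2-fold from E16 to E18 and 1 increased (8.12% and 8.10% of all genes). From E16 to P3, 5 were lower and 0 higher (15.6% and 6.58% of all genes), with a median log2 difference of -1.04. Tll1 and Mmp13 reached the floor only at E16, so they could not have come out higher. They are among the lower ones in both counts. Mmp9 was 4.55-fold (at least 1.81-fold by another probe set), Adamts1 3.70-fold, Adamts4 3.42-fold and Tll1 at least 3.17-fold lower. Bmp1, a procollagen proteinase that also trims biglycan, read 482, 154 and 298.

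**Figure D4:**
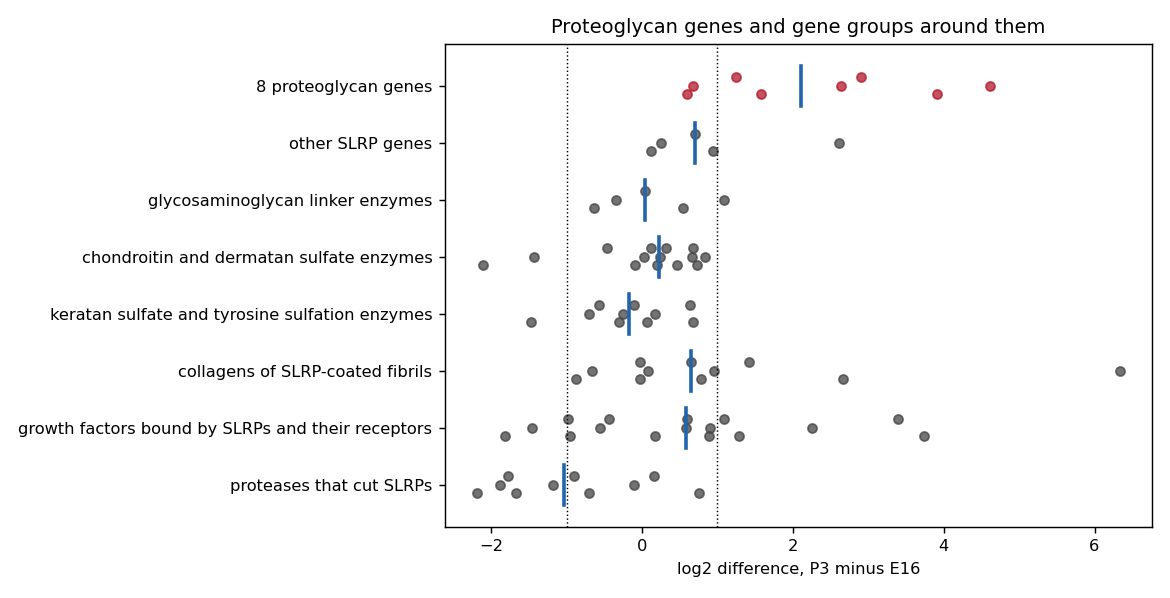
Log2 difference between P3 and E16 of each measured gene (brightest probe set) for the 8 SLRP genes (red) and 7 groups around them (dark dots); blue bars are group medians and dotted lines mark 2-fold. The SLRP median lies at 2.11 and that of the proteases at -1.04.

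Markers of cell types moved between the same arrays. A sum adds signals that may each be understated by its own factor, so the weight of a gene in it is uncertain. Odontoblast markers had a summed recovered signal of 680 at E16, 9726 at E18 and 26333 at P3, with 1, 5 and 5 of 6 at or above the floor. Dspp alone gave 41.9, 4191 and 19517 of these sums. Its E16 and E18 values (41.9111 and 4191.11) share their digits, so its E16 ratio may be a lower limit and its level is uncertain. From E18 to P3 the list had 2 of 5 measured genes at least 2-fold higher and 1 lower, Dmp1 (3720 and 782). Markers of fibroblasts of the follicle, tendon and ligament, which also express SLRPs, summed to 4030, 2885 and 3716, with 9, 7 and 8 of 13 at or above the floor. Tbx18, Igfbp6 and Pi16 were under it on all 3 arrays. In that list 2 of 9 measured genes were at least 2-fold higher from E16 to P3 and 3 lower, the higher being Scx (91.8, 130 and 228) and Igfbp5 (409, 575 and 1014) and the lower Tnmd of tendon (427, 74.5 and 159), Thbs4 (705, 74.1 and 137) and Mkx (2.06-fold). Epithelial markers summed to 7454, 23672 and 11511, highest on the E18 array, and 9, 10 and 9 of 11 were at or above the floor. By recovered signal, the P3 sum is largely that of the enamel genes Amelx (51.5, 565 and 2340) and Ambn (826, 3229 and 5377). From E16 to P3 2 of 10 measured epithelial markers, these 2, were at least 2-fold higher and 3 lower (Krt5, Krt17 and Epcam), with a median log2 difference of -0.22. Macrophage markers summed to 2225, 4409 and 8634 and cartilage markers to 1716, 2180 and 2443, both highest at P3. Of 12 measured macrophage markers, 7 were at least 2-fold higher from E16 to P3 and 0 lower (6.58% and 15.6% of all genes). At E16, 6 of the 12 were at or above the floor, and the rest could not have come out lower. Of the cartilage markers 3, 4 and 9 of 12 were at or above the floor. From E16 to P3, 4 of 9 measured ones were at least 2-fold higher and 0 lower (6.58% and 15.6% of all genes). Several of the 9 were measured only through P3. Cell cycle markers summed to 18007, 15209 and 4148, and 11 of 11 were at least 2-fold lower from E16 to P3. Of 8 listed bone markers, the 4 on the array with 1 symbol summed to 2184, 1821 and 2352. From E16 to P3 these included Alpl, 3.67-fold higher, and Ibsp, 3.53-fold lower, and 2 under 2-fold. Markers of pericytes and smooth muscle summed to 6373, 6551 and 8682, of endothelium to 4497, 2224 and 2391, of erythroid cells to 1622, 390 and 292, and of Schwann cells to 452, 545 and 423. Relative to E16, hybridisation controls read a median 2.17 times as high at E18 and 1.04 times at P3, and the 3' over 5' ratio of actin was 3.87 and 2.46 times that at E16. The part of these markers and controls in the SLRP values was not tested.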

How the data were processed

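The authors deposited 1 ratio per array for each of 45101 probe sets, including 64 controls. They used GCOS, per the submitters' processing notes; how arrays were scaled is not stated there. In 90.4% of probe sets the middle ratio was 1 within 1e-06. The others fell on steps of 1 size per array (factors of 0.718 for E16 and 1.08 for E18 relative to P3). A signal was recovered as the smallest number of steps of 0.1 that made all 3 values whole within a relative 3e-07; the method was tested on simulated data. High levels can be chance solutions and too low, which may hold for the brightest probe sets of Dcn, Lum, Bgn, Ogn and Omd, all far above the floor. The same may hold for marker genes with high signals, such as Dspp, Ambn, Dsp and Krt5. Gene names came from the platform annotation (probe sets with 1 symbol). Files were read with Python 3.11.15 and pandas 2.3.3. The members, lists and the rule for named genes were chosen with earlier results of these data known. That rule takes every member, up to 4 genes per list with the largest difference past 2-fold from E16 to P3 plus 1 well-known gene, and the 3 genes nearest in pattern; Xylt1 had no probe set with 1 symbol.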

Additional observations from a re-analysis of the deposited data

How the results depend on the processing

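The counts of SLRP genes past 2-fold were recomputed under 6 alternatives: median scaling, quantile normalization, a floor at the lower quartile, no floor, the median over probe sets, and leaving out _x_at and _s_at probe sets. Those higher numbered 6 or 7 from E16 to P3, 4 to 6 from E18 to P3 and 3 or 4 from E16 to E18, and 0 were lower in each. Of 133 values of single SLRP genes, 129 stayed on the same side of 2-fold and 0 changed direction across it, although sizes moved. Dcn from E16 to P3 was 15.0-fold and became 6.93-fold with the median over probe sets, and Fmod 24.6-fold and became 9.94-fold without _x_at probe sets. With the median over probe sets Ogn from E18 to P3 went from 4.01-fold to 8.46-fold. The other 4 were Prelp at P3, which passed 2-fold with the lower floor (log2 difference 2.33 from either stage) and with none (4.13 from E16, 2.77 from E18). Without _x_at and _s_at probe sets, Aspn and Prelp had no measured value. Of 252 counts for the surrounding gene lists, 218 were within 1.5 times. The other 34 changed by 1 to 3 genes, the most for other SLRP genes from E18 to P3, from 1 to 4 higher with the lower floor or none. Over all genes, those higher from E16 to P3 numbered 802 with the main floor, 1228 after quantile normalization, 1372 with the lower floor and 2107 with none. From E18 to P3 these numbers were 494, 795, 1040 and 1800 higher, and 1424, 872, 1911 and 2562 lower. From E16 to E18 they were 975 higher and 977 lower, against 2161 and 2174 with no floor. No paired analysis was possible because each stage has 1 array, and for the same reason no replicate could be left out.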
